A study of Rattus norvegicus with 8 samples.

Results

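Ephrins, Eph receptors, semaphorins and plexins are the membrane-bound and secreted guidance families first described in growing axons. They were compared here in the thoracic aorta of diabetic Goto-Kakizaki (GK) rats and of control Wistar rats. The rule for members reads the gene symbol only, although the families were picked with earlier results of these data known. It matched 49 of the 19238 genes in the deposited table. These were 8 ephrins, 13 Eph receptors, 20 semaphorins and 8 plexins. Plxna4a, whose symbol has an extra letter, fell outside the rule.

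Ephrins are ligands held on the cell surface, and Eph receptors are receptor tyrosine kinases on the neighbouring cell. Both partners signal after contact, and in vessels ephrin-B2 marks the arterial side and EphB4 the venous side. Semaphorins are secreted (class 3) or membrane-bound (classes 4 to 7) ligands whose main receptors are the plexins. Most class 3 semaphorins need a neuropilin as binding partner, and plexin signalling loosens integrin contacts and the actin skeleton, which in vessels restrains sprouting and patterns growth.

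Each group held 4 libraries of total RNA from rats 7 to 8 weeks old, and both groups share the library numbers 7 to 10. The GK rat is an inbred line with inherited diabetes without obesity, derived from Wistar stock. The labels give no treatment or transgene for either group. Strain and diabetes are the same split of the samples, so they cannot be told apart. Beyond the titles nothing says that the libraries come from separate animals, so p-values measure only the spread between these samples. Library totals ran from 11760397 to 16266151 gene counts.

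Levels between libraries are given as CPM, counts relative to a library's total scaled by trimmed mean of M-values (TMM), in the order of libraries 7, 8, 9 and 10. Levels between genes are given as the FPKM the authors deposited, which also divide by gene length. Each log2 fold change is the GK level over that of control, with its SE and 4 libraries a group. The values come from edgeR's quasi-likelihood test over 13673 genes, and a gene was called at a Benjamini-Hochberg adjusted p under 0.05 with no minimum fold.

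GK 9 stood apart from the other GK libraries. It held 8279 CPM of Myh1 (a skeletal muscle myosin) against at most 3.72 in the other GK libraries, and 411 CPM of Dbh (the noradrenaline-synthesis enzyme). Other libraries differed in muscle RNA too. The cardiac muscle marker Myh6 had 526 CPM in GK 7, 1073 CPM in GK 8 and 317 CPM in control 7, and at most 3.94 CPM elsewhere. GK 9 was the highest GK library for 33 of the 41 members tested (80.5%), against 38.7% of all genes tested. Control 8 was the lowest control for 24 of 41 members (58.5%, against 29.9% of all genes), and control 10 the highest for 20 of 41 (48.8%, against 19.6%). Results that turn on GK 9 are therefore given with and without it.

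Summed levels of cell type marker lists are given beside these results. Of all genes tested 3.96% were called higher and 3.31% lower, and for 7.93% each GK library lay above each control. Of 8 smooth muscle markers 2 were called lower, and the list summed to 5373 to 14489 CPM in controls and 2529 to 6792 CPM in GK. Fibroblast markers (3 of 7 called lower) summed to 3240 to 6885 CPM against 999 to 3390 CPM. Endothelial markers (3 of 8 called higher) summed to 643 to 1009 CPM against 1040 to 1273 CPM. The separation of these sums rested on Kdr: without it the other 7 markers summed to 541 to 895 CPM in controls and 710 to 978 CPM in GK, which overlap. Of these 7, Nos3 and Sox17 were called higher, each without overlap of the groups. Their log2 fold changes were 0.77 and 0.94 (edgeR adjusted p = 0.0252 and 0.0197). Cdh5 and Tek lay above 0 without a call (0.48 and 0.27), and Vwf, Erg and Tie1 below 0 (-0.51, -0.11 and -0.02). Macrophage markers (1 of 6 called lower, Lyz2) summed to 398 to 952 CPM in controls and 249 to 408 CPM in GK, and 5 of 6 had a log2 fold change below 0. Adipocyte markers (2 of 8 called higher) ran from 5314 to 9349 CPM against 7877 to 17835 CPM. Of the 8, 7 had a log2 fold change above 0, and Lep lay below 0 without a call (-1.92, edgeR adjusted p = 0.111). Nerve and Schwann cell markers (0 of 5 tested were called) summed to 88.7 to 571 CPM in controls and 287 to 1476 CPM in GK, and skeletal and cardiac muscle markers (0 of 3) to 2.61 to 365 CPM and 4.76 to 10087 CPM. No list had a marker at 0 in all 8 libraries, and the smooth muscle and endothelial markers of aorta were present in each library. The part of these markers in the results on guidance genes was not tested, and in bulk tissue fewer cells of a type and less RNA per cell cannot be told apart.

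**Figure D1:**
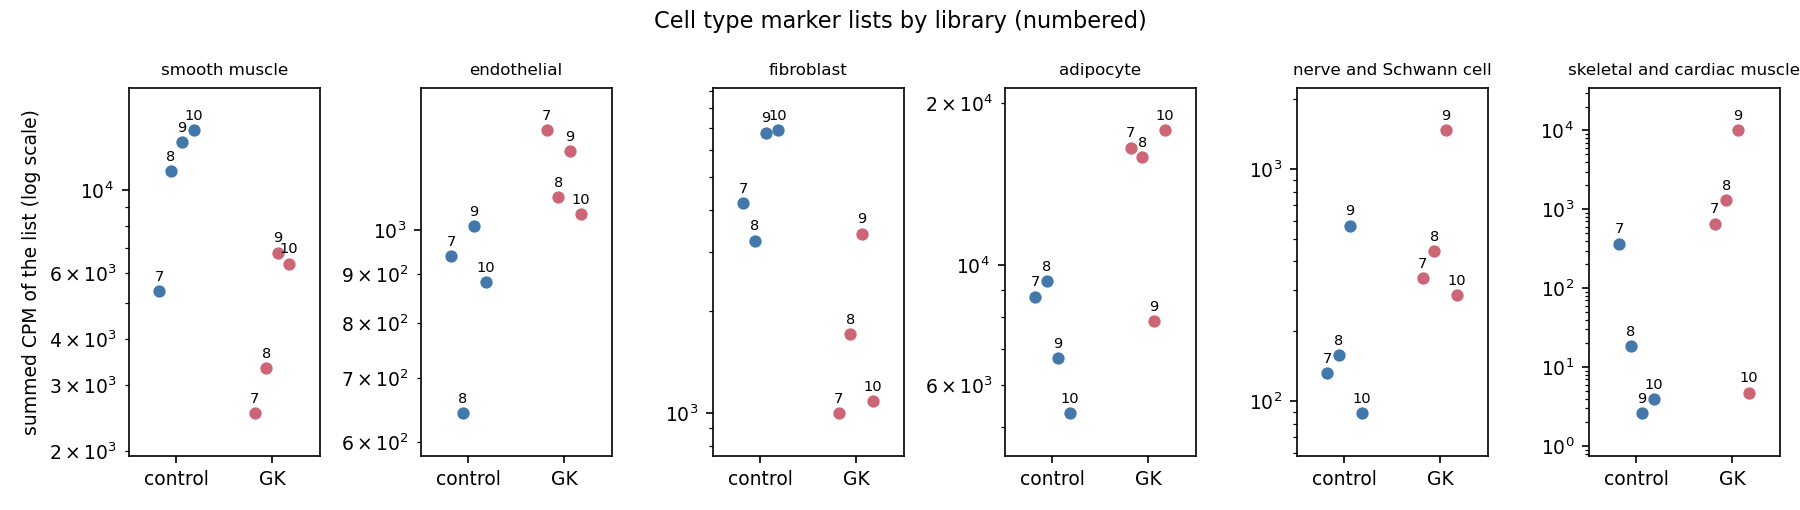
Summed CPM (log scale) of 6 cell type marker lists in each library, with control libraries in blue, GK libraries in red and the library number beside each point. The endothelial sums of the GK libraries lie above those of the controls with Kdr in the list, but not without it, and GK 9 stands at 10087 CPM for skeletal and cardiac muscle and 1476 CPM for nerve and Schwann cells.

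All 49 members were first ordered by their level per gene length, without a test. Plxnd1, the endothelial plexin that receives Sema3e, had the highest mean level of the families, with 44.0 ± 10.04 FPKM in controls and 32.1 ± 8.51 FPKM in GK (SD, n = 4 each). The class 3 semaphorin Sema3c followed with a mean over all libraries of 18.4 FPKM, then Ephb4 with 15.7 and Efnb2 with 15.5 FPKM, the receptor and ligand of the classical vein and artery pair. Sema7a, Efna5, Plxnb2, Sema4b, Efnb1, Sema3d, Plxna2 and Efna1 lay between 13.7 and 11.3 FPKM, and the spread over libraries was larger than the steps between these neighbours. At the other end, 8 members did not pass the filter on low counts and were not tested. They were Epha1, Epha5, Epha7, Epha8, Epha10, Efna2, Efna3 and Efnb3, with mean levels from 0.0224 FPKM for Epha10 to 0.517 FPKM for Efna2.

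GK 9 held most of the reads of some of these rare members. Of the 243 Epha5 counts in the GK libraries 240 came from GK 9, and all 4 controls together had 13. Epha10 had 0 counts in controls and 9 in GK, of which 8 were in GK 9. Efna3 had 6 counts over the controls and 0 over the GK libraries.

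**Figure D2:**
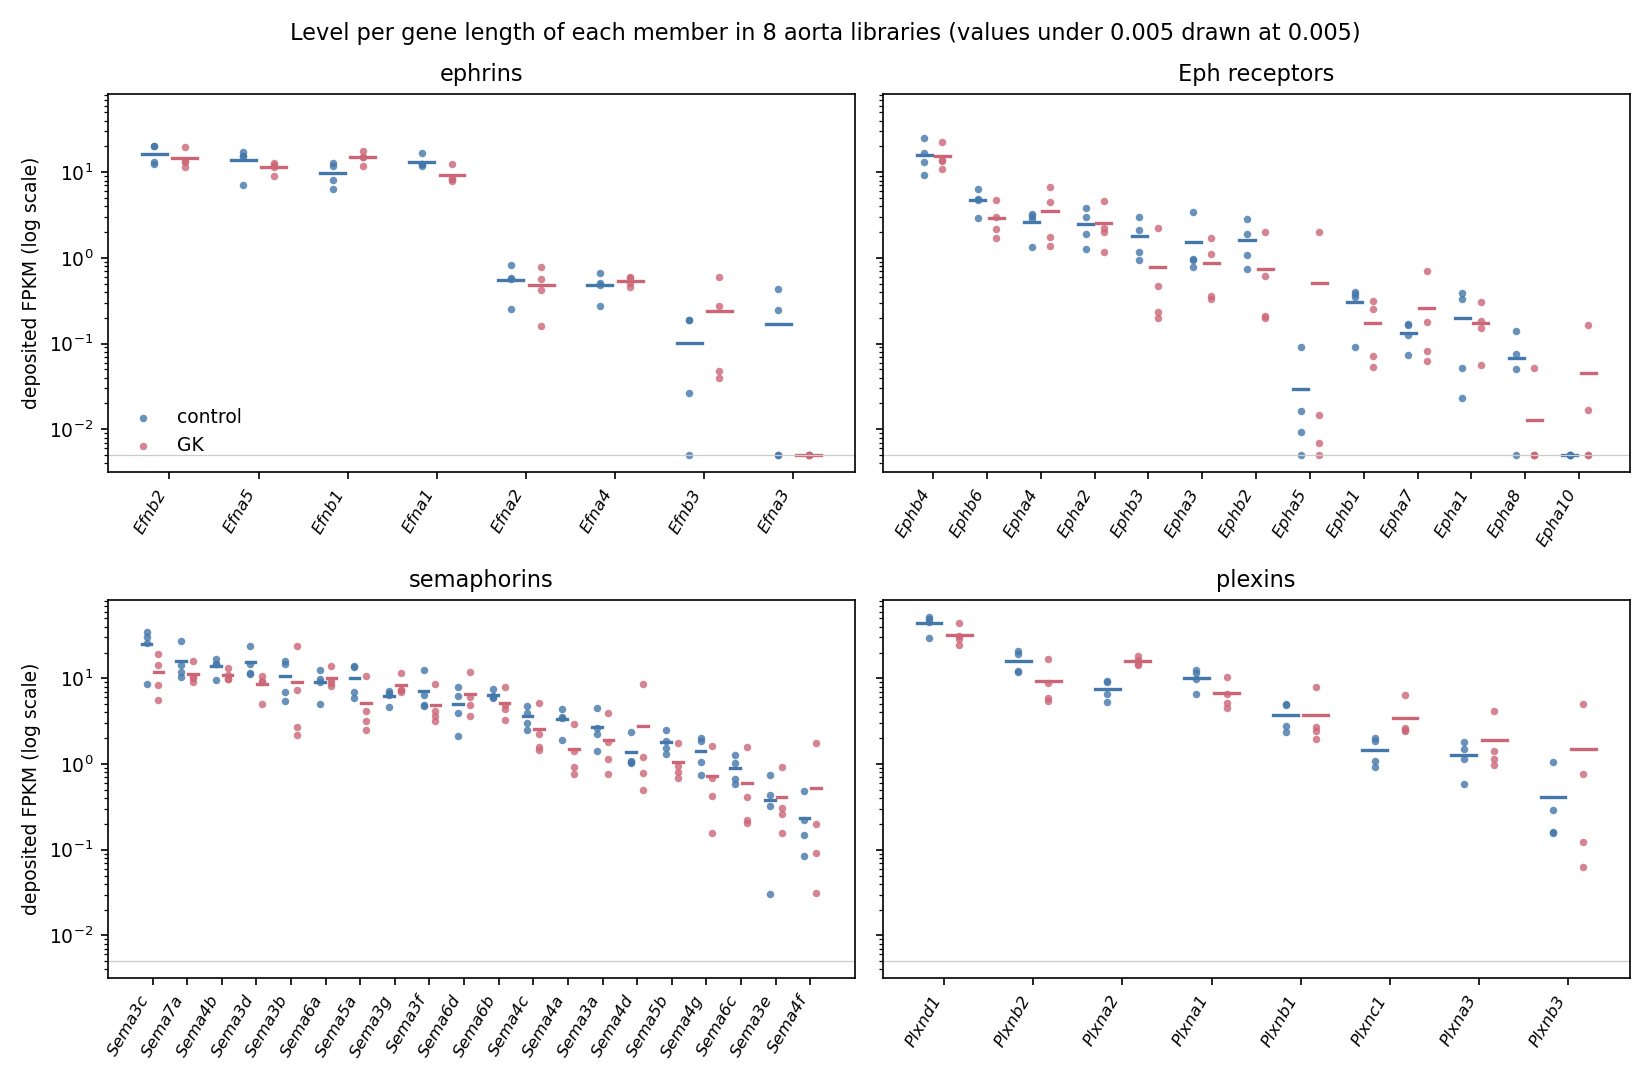
Deposited FPKM (log scale) of each of the 49 members in the 4 control (blue) and 4 GK (red) libraries, by family and ordered by mean level; short bars are group means and values under 0.005 are drawn at 0.005. Plxnd1, Sema3c, Ephb4 and Efnb2 head their families, and the 8 members that were not tested are among the lowest of their families.

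Which guidance genes differ between the diabetic strain and control was the question of the comparison. Of the 41 members tested 4 were called higher in GK and 0 lower: the plexins Plxna2 and Plxnc1, the ephrin Efnb1 and the semaphorin Sema3g. That is 9.76% of the members tested, beside 7.28% of all genes tested (3.96% called higher and 3.31% called lower). At an unadjusted edgeR p under 0.05 there were 4 members higher and 8 lower, 12 of 41, beside 27.6% of all genes, and DESeq2 called 4 members higher and 2 lower, beside 18.2% of all genes. The median log2 fold change was -0.23 over the 41 members, from -1.19 to 1.86, and 0.00081 over all genes tested. The libraries of the groups did not overlap for 6 members, beside 15.6% of all genes. These were the 4 called ones, with GK above control (9.76% of members, beside 7.93% of all genes), and Efna1 and Sema3d, with GK below (beside 7.64%).

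By family, plexins had a median log2 fold change of 0.40, with 2 of 8 called higher. Ephrins had a median of -0.03 with 1 of 5 called higher. Semaphorins had a median of -0.36 with 1 of 20 called higher, and Eph receptors a median of -0.64 with 0 of 8 called and 0 at an unadjusted edgeR p under 0.05 (0 called by DESeq2 as well). No test was made between the families.

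**Figure D3:**
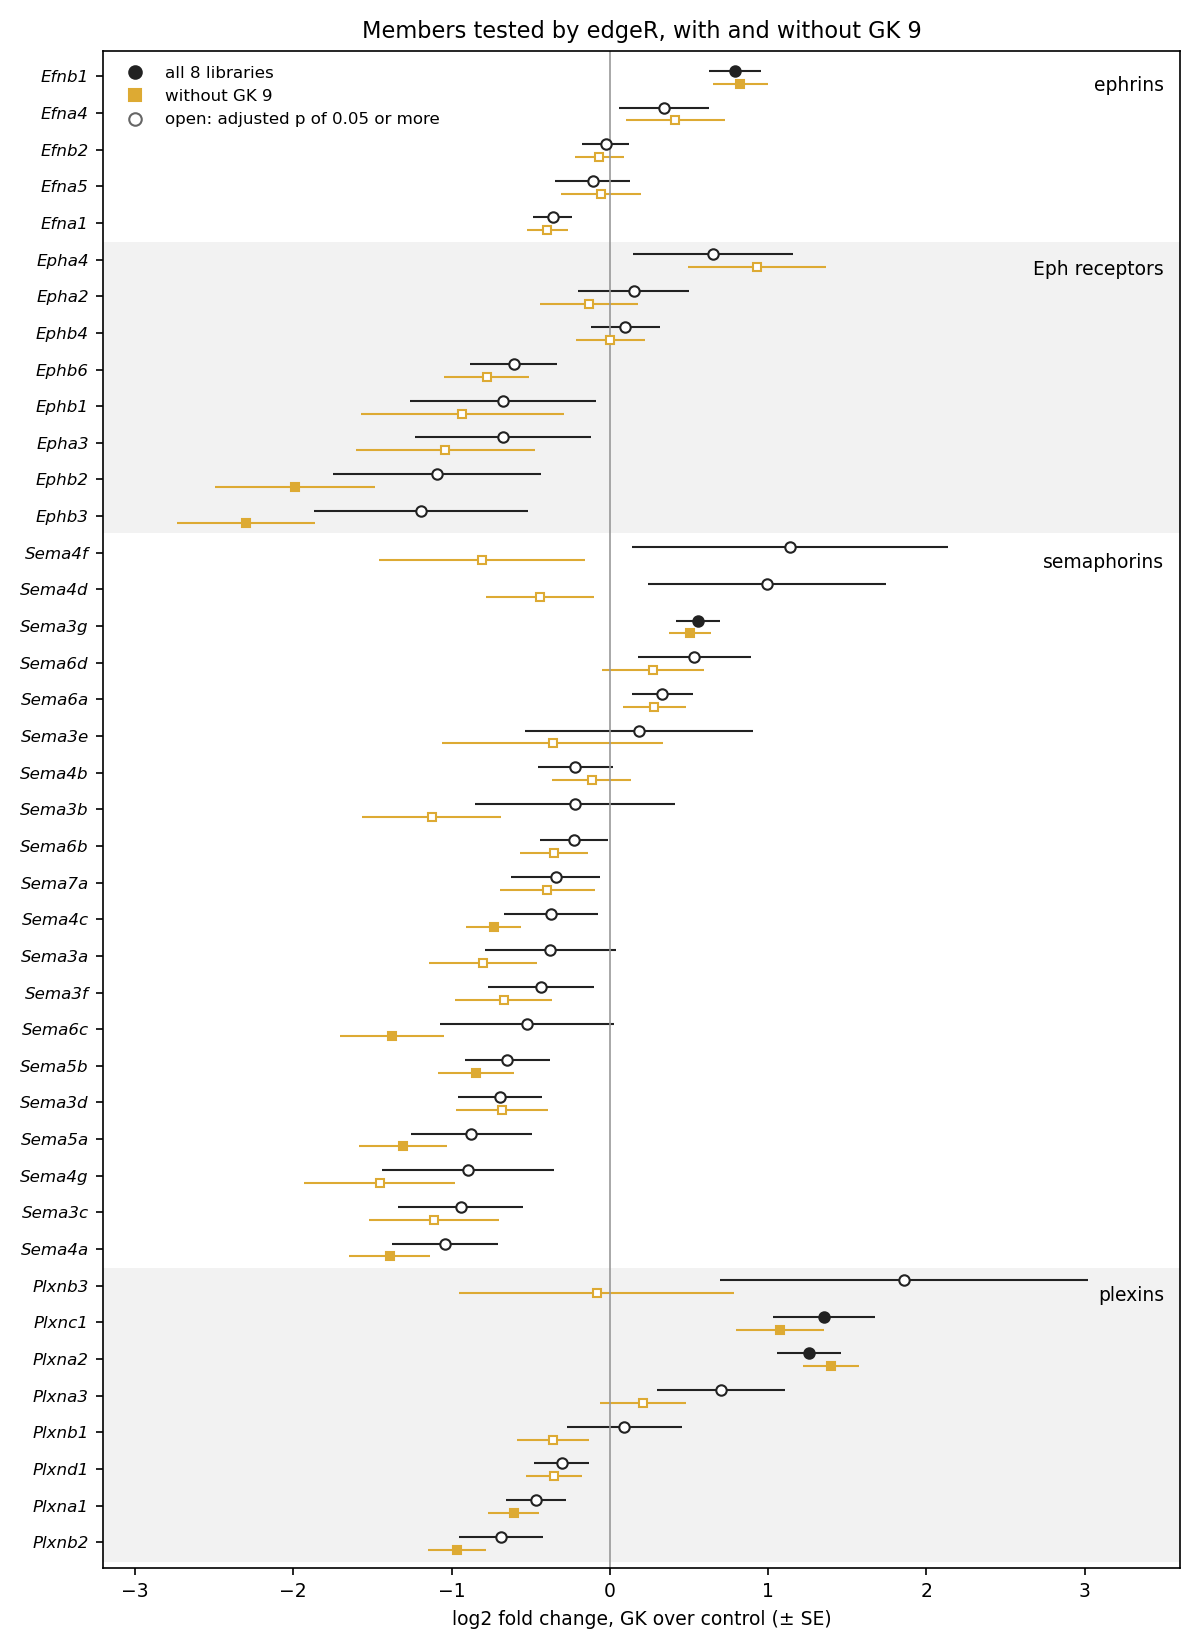
Log2 fold change (GK over control, ± SE) of the 41 members tested, with all 8 libraries (black circles) and without GK 9 (yellow squares); filled symbols have an edgeR adjusted p under 0.05. Plxna2, Plxnc1, Efnb1 and Sema3g are filled with and without GK 9, and 9 members below 0 are filled only in the set without GK 9.

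Plexins are the semaphorin receptors. Plxna2, a receptor for class 6 semaphorins and, with neuropilins, for class 3, stood at 100.2, 64.4, 82.8 and 67.4 CPM in controls 7 to 10 and at 215, 209, 137 and 193 CPM in GK 7 to 10. Each GK library lay above each control, with GK 9 the lowest of the 4. The rise of Plxna2 was 1.26 ± 0.20 in log2 units (edgeR adjusted p = 0.0149). Its share of the FPKM of all 8 plexins went from 9.07% ± 1.59 to 22.8% ± 6.40 (SD, n = 4), while that of Plxnd1 was 52.0% ± 4.39 in controls and 43.7% ± 2.49 in GK. Without control 10, GK 7 or GK 8 the adjusted p of Plxna2 was 0.0606, 0.0543 or 0.0547, and with any other single library left out it was at most 0.0433.

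Plxnc1, the receptor of Sema7a, was a low-level plexin with 9.40, 5.55, 7.04 and 4.03 CPM in controls and 14.6, 11.9, 25.5 and 14.3 CPM in GK. The groups did not overlap, and GK 9 was the highest library. Plxnc1 rose by 1.35 ± 0.32 (edgeR adjusted p = 0.0438), and by 1.08 ± 0.28 without GK 9 (adjusted p = 0.0309). Leaving out control 8, control 9, control 10, GK 7, GK 8 or GK 10 gave an adjusted p from 0.0816 to 0.114. Plxnc1 also lost its call with no filter on low counts (edgeR adjusted p = 0.0545). In the authors' deposited table Plxna2 has a q-value of 0.00125 and Plxnc1 of 0.0143.

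The remaining 6 plexins did not pass the test. Plxnd1 had 295, 196, 224 and 292 CPM in controls and 207, 199, 229 and 179.7 CPM in GK (log2 fold change -0.31 ± 0.18, edgeR adjusted p = 0.291), with overlap of the groups. Plxnb2, a receptor of class 4 semaphorins, had 89.0, 95.3, 124 and 129 CPM in controls and 51.6, 66.2, 106 and 48.1 CPM in GK. Only GK 9 reached the range of the controls, and the log2 fold change of -0.69 ± 0.26 (adjusted p = 0.138) became -0.97 ± 0.18 without GK 9 (adjusted p = 0.0117). Plxna1 moved in the same way, from -0.46 ± 0.19 (adjusted p = 0.158) to -0.61 ± 0.16 without GK 9 (adjusted p = 0.0333). Plxnb3, a plexin of glial cells, had the largest fold change of the 41 members tested at 1.86 ± 1.16, but it had 25.4 CPM in GK 9 and 0.453 to 4.74 CPM in the other GK libraries, and without GK 9 the value was -0.08 ± 0.87.

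**Figure D4:**
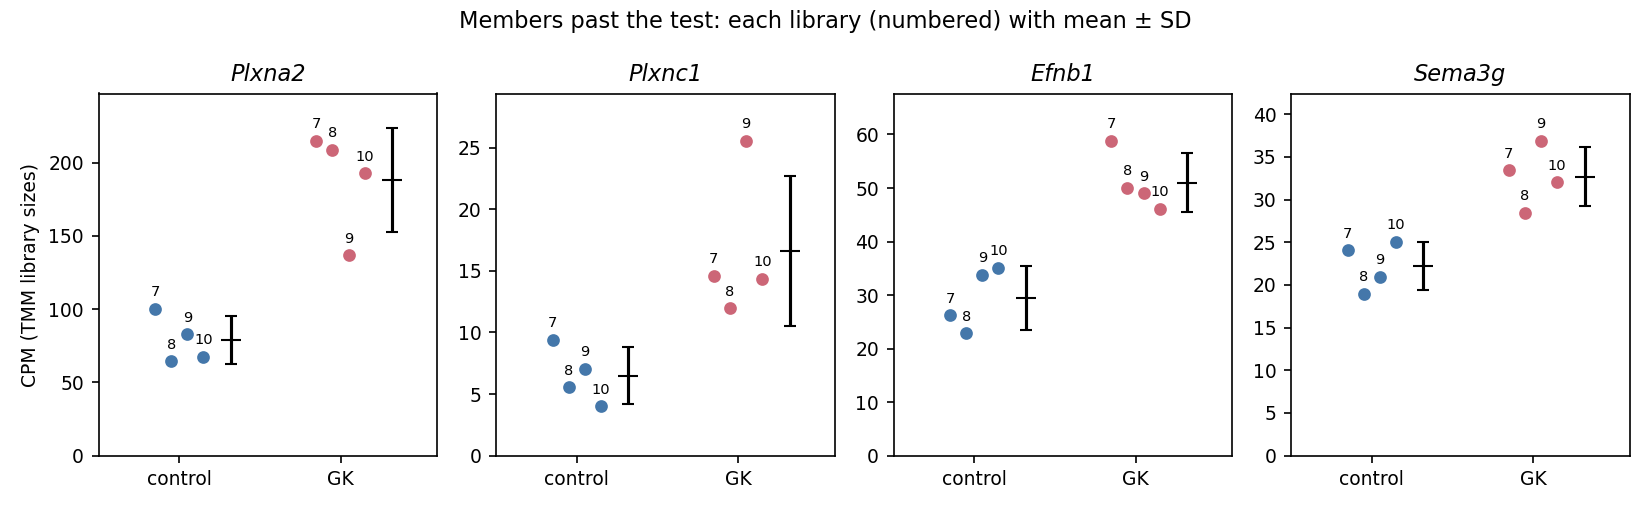
CPM (TMM-scaled) of the 4 members called higher in GK, for each library (numbered) with the group mean ± SD at the side and axes from 0. For each of the 4 genes the lowest GK library lies above the highest control, with 137 CPM above 100.2 CPM for Plxna2.

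Ephrins are the ligands of Eph receptors. Efnb1, the transmembrane ephrin-B1, stood at 26.2, 22.8, 33.8 and 35.1 CPM in controls and 58.8, 50.04, 49.0 and 46.1 CPM in GK. The groups did not overlap, and the GK values were close together. Its log2 rise was 0.79 ± 0.16 (edgeR adjusted p = 0.0300). Its share of ephrin FPKM was 17.6% ± 1.57 in controls and 29.1% ± 1.29 in GK. Its q-value in the authors' deposited table is 0.0499. The adjusted p stayed under 0.05 without control 9 (0.0407) or GK 9 (0.0160), and lay between 0.0520 and 0.0933 without each of the other 6 libraries.

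The arterial ligand Efnb2 had 52.2, 60.7, 69.4 and 78.1 CPM in controls and 67.1, 59.2, 71.1 and 58.4 CPM in GK. The GK values lay inside the control range, with a log2 fold change of -0.03 ± 0.15 (edgeR adjusted p = 0.926). Efna5, a ligand anchored by a lipid, was at 10.2, 5.18, 8.38 and 10.6 CPM in controls and 8.98, 8.37, 7.29 and 7.25 CPM in GK (log2 fold change -0.11 ± 0.24, adjusted p = 0.791). Efna1, also lipid-anchored and a ligand of EphA2, had 18.8, 19.7, 20.6 and 17.5 CPM in controls against 15.3, 13.3, 16.3 and 14.7 CPM in GK. Each GK library lay below each control, the log2 fold change was -0.36 ± 0.12 and the adjusted p 0.106, while DESeq2 gave an adjusted p of 0.0471.

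Eph receptors gave no call with all 8 libraries. Ephb4, which took 50.4% ± 4.42 of Eph receptor FPKM in controls and 56.5% ± 7.19 in GK, had 52.9, 41.1, 81.4 and 62.5 CPM in controls and 65.5, 58.4, 77.6 and 53.1 CPM in GK. The groups overlapped, with a log2 fold change of 0.10 ± 0.22 (edgeR adjusted p = 0.795). Ephb6, a member whose kinase domain is inactive, had the lowest p of the receptors, with 11.8, 21.7, 15.6 and 23.8 CPM in controls and 8.32, 12.5, 16.3 and 10.7 CPM in GK (log2 fold change -0.61 ± 0.28, adjusted p = 0.193).

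Ephb2 and Ephb3, which bind B-class ephrins and signal through their kinase, depended on GK 9. Ephb2 had 6.97, 5.27, 10.1 and 17.0 CPM in controls and 1.53, 4.12, 11.1 and 1.66 CPM in GK. Ephb3 had 4.70, 4.07, 6.90 and 11.1 CPM in controls and 0.949, 1.92, 7.61 and 1.13 CPM in GK. For both genes GK 9 lay within the control range and the other 3 GK libraries lay below every control. The log2 fold change of Ephb2 was -1.09 ± 0.66 (edgeR adjusted p = 0.314) with GK 9 and -1.99 ± 0.51 without it (adjusted p = 0.0289). For Ephb3 it was -1.19 ± 0.68 (adjusted p = 0.286) and -2.30 ± 0.44 (adjusted p = 0.0120). Epha4, a receptor that binds ephrins of both classes, spread within GK instead, with 33.4 and 43.8 CPM in GK 7 and GK 8 and 9.55 and 10.5 CPM in GK 9 and GK 10, beside 9.24 to 19.2 CPM in controls.

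Secreted class 3 semaphorins hold the one semaphorin call. Sema3g, a semaphorin of endothelium that binds neuropilin-2, stood at 24.1, 19.0, 21.0 and 25.0 CPM in controls and 33.4, 28.5, 36.9 and 32.0 CPM in GK. The groups did not overlap, though the step was the smallest of the 4 calls. With a log2 fold change of 0.55 ± 0.14 it just passed the test (edgeR adjusted p = 0.0484). Without GK 9 the adjusted p was 0.0337, and without each of the other 7 libraries it lay between 0.0603 and 0.132. Sema3g also lost its call with no filter on low counts (edgeR adjusted p = 0.0640) and without both libraries numbered 9 (0.0704). In the authors' deposited table its q-value is 0.224.

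The class 3 members with the highest levels lay on the other side of 0 without passing the test. Sema3c, which guides outflow tract and vessel growth in the mouse embryo, had 130.1, 47.1, 125 and 164 CPM in controls and 51.0, 73.9, 82.9 and 34.8 CPM in GK. Control 8 lay inside the GK range, and the log2 fold change was -0.94 ± 0.39 (edgeR adjusted p = 0.165). Sema3d had 55.4, 62.1, 59.3 and 109 CPM in controls and 29.9, 47.6, 44.5 and 54.7 CPM in GK. Its groups did not overlap, control 10 stood far above the other controls, and the log2 fold change was -0.69 ± 0.26 (adjusted p = 0.134). Without control 10 the log2 fold change of Sema3d was -0.42 ± 0.21 (edgeR adjusted p = 0.303). In all, 2 of the 7 class 3 members had a log2 fold change above 0 and 5 below.

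Membrane-bound semaphorins of classes 4 to 7 gave 0 calls among 13 members with all 8 libraries by edgeR, 3 members had an unadjusted p under 0.05 (beside 27.6% of all genes), and DESeq2 called 1 of them, Sema4a (beside 18.2% of all genes). In class 4, Sema4b had 58.1, 54.9, 27.1 and 46.7 CPM in controls and 40.3, 47.2, 32.3 and 40.9 CPM in GK (log2 fold change -0.22 ± 0.24, edgeR adjusted p = 0.575). Sema4c, a Plxnb2 ligand, had 17.2, 15.6, 22.2 and 20.7 CPM in controls and 9.85, 13.2, 24.8 and 10.8 CPM in GK. GK 9 was its highest library, and the log2 fold change went from -0.37 ± 0.30 (adjusted p = 0.446) to -0.73 ± 0.17 without GK 9 (adjusted p = 0.0233). Sema4a, which acts on immune cells and endothelium, had 11.7, 7.03, 11.998 and 10.5 CPM in controls and 3.72, 4.87, 8.32 and 3.10 CPM in GK. Only GK 9 reached above the lowest control, and the log2 fold change was -1.04 ± 0.33 (adjusted p = 0.0897), or -1.39 ± 0.26 without GK 9 (adjusted p = 0.0110). Macrophage markers summed lower in GK as well (398 to 952 CPM in controls, 249 to 408 CPM in GK), and their part in Sema4a was not tested.

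Sema4d, the ligand of Plxnb1, showed the opposite pull of GK 9. It had 4.55, 4.71, 8.18 and 4.09 CPM in controls and 3.94, 5.29, 31.0 and 2.57 CPM in GK. The log2 fold change was 0.99 ± 0.75 with GK 9 and -0.44 ± 0.34 without it. Its receptor Plxnb1 likewise had 45.6 CPM in GK 9 and 15.8 to 19.6 CPM in the other GK libraries.

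In class 5, whose members carry thrombospondin repeats, Sema5a had 65.4, 84.2, 123 and 143 CPM in controls and 33.2, 47.9, 102 and 43.6 CPM in GK. Again 3 GK libraries lay below every control and GK 9 within their range. The log2 fold change was -0.87 ± 0.38 (edgeR adjusted p = 0.178) and -1.30 ± 0.28 without GK 9 (adjusted p = 0.0165). Sema5b had 4.92, 4.62, 4.89 and 7.44 CPM in controls and 2.70, 3.16, 4.90 and 3.17 CPM in GK, with -0.65 ± 0.27 (adjusted p = 0.161) and -0.85 ± 0.24 without GK 9 (adjusted p = 0.0412).

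Class 6 semaphorins bind class A plexins. Sema6a, a ligand of Plxna2, had 28.4, 17.2, 32.0 and 28.5 CPM in controls and 33.8, 31.0, 37.8 and 31.0 CPM in GK, with a log2 fold change of 0.33 ± 0.19 (edgeR adjusted p = 0.296). Sema6d, a ligand of Plxna1, had 33.0, 19.4, 55.1 and 48.4 CPM in controls and 49.9, 52.9, 86.2 and 37.0 CPM in GK (0.53 ± 0.35, adjusted p = 0.356). Both pairs of groups overlapped. Sema6c was at -0.52 ± 0.55 with GK 9 and -1.38 ± 0.33 without it (adjusted p = 0.0234). Sema7a, the lipid-anchored ligand of Plxnc1, had 26.6, 34.0, 30.2 and 66.3 CPM in controls and 31.2, 28.3, 35.5 and 29.0 CPM in GK. Apart from control 10 the libraries of both groups covered similar ranges, and the log2 fold change was -0.34 ± 0.28 (adjusted p = 0.452).

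Without GK 9 edgeR thus called 4 members higher (the same 4 genes) and 9 lower, namely Ephb2, Ephb3, Plxna1, Plxnb2, Sema4a, Sema4c, Sema5a, Sema5b and Sema6c. That is 31.7% of 41 members, beside 22.1% of all genes in that fit, 11.2% higher and 10.9% lower. Because GK 9 was the highest GK library for 33 of the 41 members, leaving it out lowers their GK means by construction. The calls lower in that fit are therefore no independent evidence of a fall. Among the GK libraries GK 9 had the highest sums of fibroblast markers (3390 CPM) and smooth muscle markers (6792 CPM, beside 6353 CPM in GK 10). It was also the highest GK library for the lymphatic endothelial, T cell and erythroid lists. The same held for the nerve and Schwann cell list and the skeletal and cardiac muscle list. For adipocyte markers GK 9 was instead the lowest GK library, with 7877 CPM beside 15871 to 17835 CPM in the others. The part of these lists in these members was not tested. Without both libraries numbered 9 edgeR called 3 members higher and 7 lower (25.0% of 40 members, beside 18.7% of all genes).

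**Figure D5:**
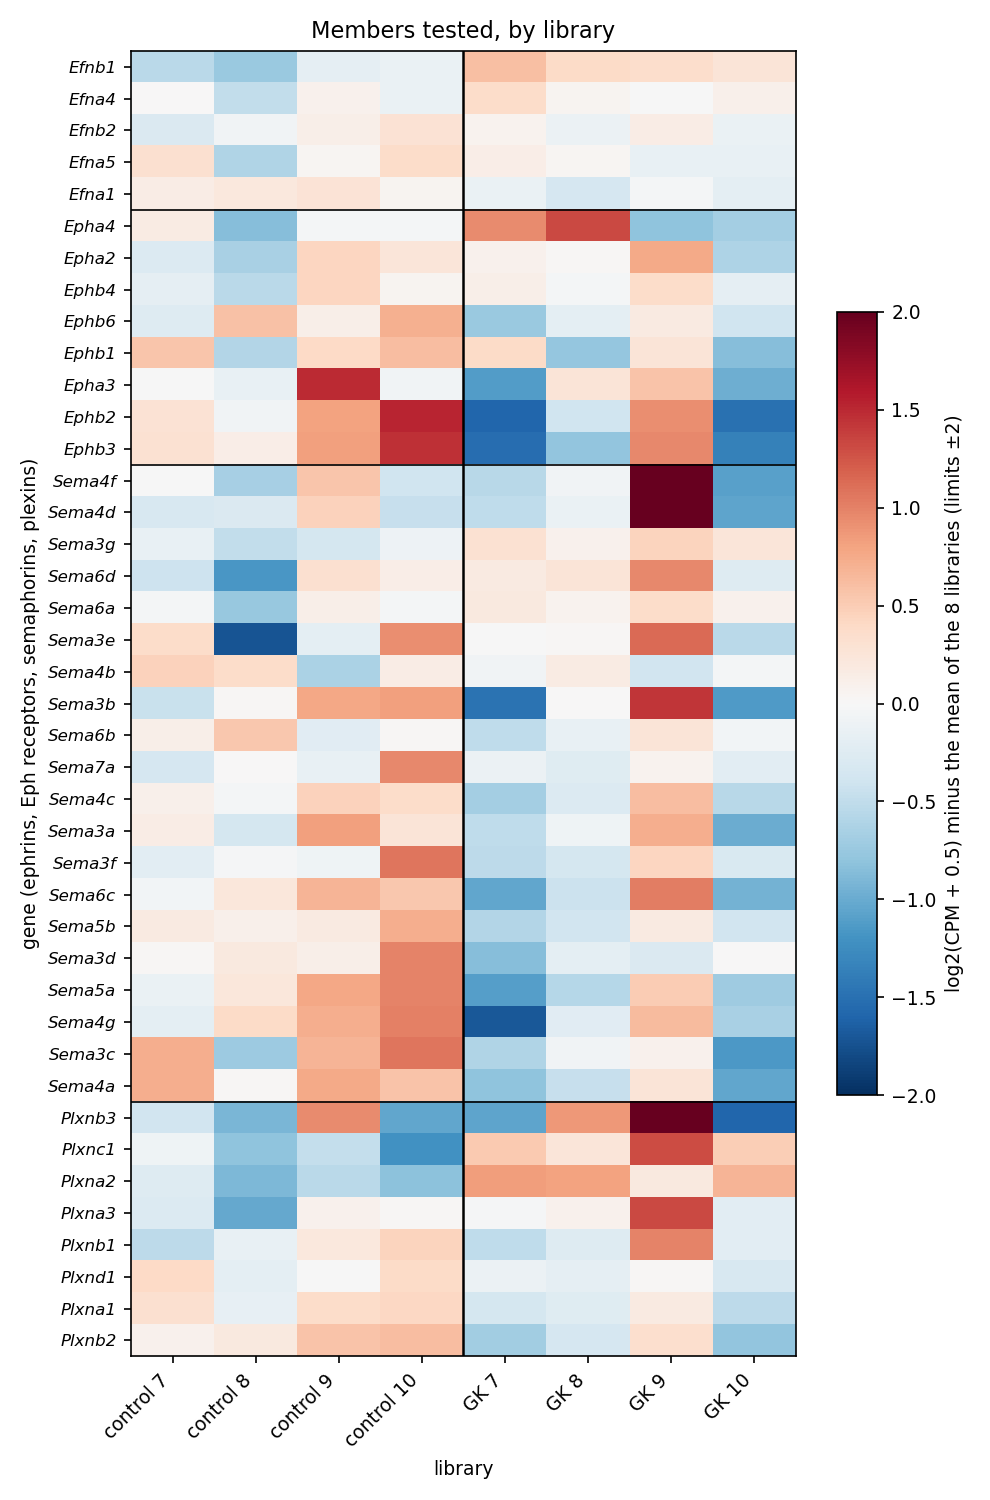
Deviation of each tested member in each library from its mean over the 8 libraries, in log2(CPM + 0.5), by family, with red above and blue below the mean and the scale limited at ±2. Plxna2, Plxnc1 and Efnb1 are blue in the controls and red in GK, and GK 9 is red for many genes that are blue in the other GK libraries.

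Promoters are shown for the 4 called genes, all called higher in GK. Within GK these genes did not run together. GK 9 was the lowest GK library for Plxna2 (137 CPM) and the highest for Plxnc1 (25.5 CPM) and Sema3g (36.9 CPM). RefSeq windows in build GRCr8 run from 250 bases before to 50 bases after the start, 5′ to 3′ on the gene's strand, and 40 of the 49 members had one. Short motifs were searched on both strands, and capitals mark each match. The letters searched were TATAAA for the TATA box, GGGCGG for the GC box, CCAAT for the CCAAT box, CGGAAG for the core bound by ETS factors and CACGTG for the E box, and no matches overlap in the windows shown. The windows are chr13:108691280-108691579 (plus strand) for Plxna2, chr7:31430556-31430855 (minus strand) for Plxnc1, chrX:68297279-68297578 (plus strand) for Efnb1 and chr16:6419775-6420074 (plus strand) for Sema3g.
Plxna2: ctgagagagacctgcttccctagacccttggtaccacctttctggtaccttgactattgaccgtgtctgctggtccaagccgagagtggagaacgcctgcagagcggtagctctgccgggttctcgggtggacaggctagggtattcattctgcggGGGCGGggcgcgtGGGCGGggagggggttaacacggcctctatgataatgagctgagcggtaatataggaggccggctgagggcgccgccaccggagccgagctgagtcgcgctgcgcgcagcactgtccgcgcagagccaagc
Plxnc1: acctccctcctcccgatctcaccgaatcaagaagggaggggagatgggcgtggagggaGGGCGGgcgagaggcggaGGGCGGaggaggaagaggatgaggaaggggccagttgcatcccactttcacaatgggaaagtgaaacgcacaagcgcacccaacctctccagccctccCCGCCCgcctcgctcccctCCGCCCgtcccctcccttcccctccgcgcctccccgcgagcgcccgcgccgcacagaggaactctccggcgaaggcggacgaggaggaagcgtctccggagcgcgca
Efnb1: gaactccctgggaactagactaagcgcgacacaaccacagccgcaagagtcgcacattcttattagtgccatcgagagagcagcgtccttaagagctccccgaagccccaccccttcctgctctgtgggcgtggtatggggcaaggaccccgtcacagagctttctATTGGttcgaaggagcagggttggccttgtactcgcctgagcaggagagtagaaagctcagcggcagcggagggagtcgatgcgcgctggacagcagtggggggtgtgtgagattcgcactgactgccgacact
Sema3g: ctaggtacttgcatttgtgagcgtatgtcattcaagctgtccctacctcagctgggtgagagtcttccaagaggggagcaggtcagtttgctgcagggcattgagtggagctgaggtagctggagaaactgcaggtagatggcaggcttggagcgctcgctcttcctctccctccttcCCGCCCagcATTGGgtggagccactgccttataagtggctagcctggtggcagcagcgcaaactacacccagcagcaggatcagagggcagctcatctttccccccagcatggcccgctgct

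The GC content of these windows was 63.3% for Plxna2, 69.0% for Plxnc1, 59.0% for Efnb1 and 58.0% for Sema3g, beside a median of 51.7% over all 33469 promoters of the table. The 2 plexin windows held GC boxes, 2 in Plxna2 and 4 in Plxnc1. Efnb1 had 1 CCAAT match and Sema3g had 1 GC box and 1 CCAAT match. A GC box was present in 33.1% of all promoters and in 55% of the 40 member promoters, CCAAT in 37.5% and 35%, the ETS core in 16.6% and 7.5%, and the E box in 6.42% and 10%. TATAAA was in 14.2% of all promoters and in 0% of the member promoters. A match of letters is a description and not a shown binding site.

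Genes that work with these families were taken from 3 lists by role, and 67 of 75 were tested. Of these 5 were called higher and 2 lower, beside 7.28% of all genes called. Among 12 binding partners of the receptors, Kdr, the VEGF receptor that pairs with neuropilin-1, had 156, 103, 114 and 129 CPM in controls and 454, 373, 232 and 309 CPM in GK and rose by 1.45 ± 0.24 (edgeR adjusted p = 0.0153). Met, the hepatocyte growth factor receptor that associates with class B plexins, fell by 0.80 ± 0.11 (adjusted p = 0.00946), from 67.3 to 82.0 CPM in controls to 41.8 to 47.3 CPM in GK. Nrp1, the neuropilin that holds class 3 semaphorins, had 249, 185, 215 and 222 CPM in controls and 482, 476, 286 and 283 CPM in GK. Each GK library lay above each control, but the log2 fold change of 0.81 ± 0.23 did not pass the test (adjusted p = 0.0659). Nrp2, the binding partner of Sema3g, had 0.23 ± 0.26 (adjusted p = 0.583).

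Of 16 tested genes of the netrin, slit and repulsive guidance molecule families 2 were called higher and 1 lower. Unc5b, the endothelial netrin receptor, rose by 0.70 ± 0.13 (edgeR adjusted p = 0.0219), with 49.4 to 59.0 CPM in controls and 77.9 to 105 CPM in GK. Unc5a, its neuronal relative, rose by 2.36 ± 0.48 (adjusted p = 0.0282) from 1.21 to 6.84 CPM in controls to 11.8 to 24.4 CPM in GK. Rgma, a ligand of neogenin, fell by 0.92 ± 0.21 (adjusted p = 0.0363). Of 39 tested intracellular effectors 2 were called higher and 0 lower. Gipc1, an adaptor that binds neuropilin-1 and plexins, rose by 1.06 ± 0.16 (adjusted p = 0.0123), and Tiam1, an activator of the small GTPase Rac, by 1.04 ± 0.21 (adjusted p = 0.0282). Met stayed called in all 13 alternatives run, with an adjusted p of at most 0.0464. The other 6 lost their call with single libraries left out: Gipc1 without control 10 (0.0539), and Kdr without control 10 (0.0606) or GK 8 (0.0547). Unc5b and Tiam1 lost it without control 10, GK 7, GK 8 or GK 10, with at most 0.0770 and 0.0927. For Unc5a the highest value was 0.0885, without those same libraries or control 7, and for Rgma it was 0.118, with a loss for each single library except GK 9. Kdr also belongs to the endothelial marker list. Without it the sums of that list overlapped between the groups, though Nos3 and Sox17 of that list were called higher.

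In the authors' deposited table of pathways, axon guidance had 6 called genes of 171, with Camk2b, Cxcl12, Plxna2 and Unc5a up and Src and LOC100912512 down. Plxna2 was the one family member among them. Plxnc1 and Efnb1 were not, though the authors' q-values for them were 0.0143 and 0.0499. The threshold behind this list was not established here, so no share of all genes stands beside its count.

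The authors also paired long non-coding RNA (lncRNA) transcripts that they had called with target genes, and 23 of these pairs name a member. Since the pairs hold transcripts that were called on these libraries, their differences are no independent evidence. Efna5 was paired in cis with MSTRG.42756.2, at 110155179 to 110161382 on chromosome 9 inside the span of Efna5 (110057155 to 110225486; the files' rat build was not given in the sources used here). It had 76.5, 82.1, 0 and 185 CPM of lncRNA counts in controls and 0, 0, 0.517 and 0 CPM in GK, 626 counts against 1. The transcript was thus absent from counts in control 9 too, did not pass the filter, and had an edgeR adjusted p of 0.0820 without a filter. The ratio of control over GK was 606, with a counting interval of 108 to 23990. Whether counting used the strand is not stated, so its reads and those of Efna5 cannot be told apart by strand.

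The other 22 pairs join Plxna3 in trans, of which 8 lncRNAs could be tested. Of these 3 were called higher and 2 lower, beside 2.74% of all 11683 lncRNAs tested called in either direction and 1.11% called lower. MSTRG.22975.2 had 0 counts in the 4 controls and 95.5, 113, 53.3 and 73.8 CPM in GK. Plxna3 itself, a neuropilin-dependent plexin, had 8.29, 4.71, 10.8 and 10.2 CPM in controls and 9.93, 10.8, 26.1 and 8.61 CPM in GK, where GK 9 stood apart and the other GK libraries overlapped the controls. Its log2 fold change was 0.70 ± 0.40 (edgeR adjusted p = 0.295) and 0.21 ± 0.27 without GK 9.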

How the data were processed

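Total RNA of 4 control and 4 GK aorta samples was sequenced; groups came from titles, strain and group labels, because the source name says GK even for controls. Per the file headers, the authors deposited unnormalised counts for genes and lncRNA transcripts, FPKM for each library, and q-values from edgeR, which are the authors' adjusted p-values. The deposited FPKM were checked to follow the unscaled total gene counts, so they lack the TMM scaling. Per the submitters' processing notes tools include Bowtie 0.12.2 and 2 mouse builds with no role stated; the rat build, the aligner's role and the counting strand are not given in the sources used here.

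Counts were tested in R 4.3.3 with edgeR 4.0.16 (filterByExpr, TMM, glmQLFit, glmQLFTest, group only, Benjamini-Hochberg over all genes or all lncRNAs). The SE was taken as the fitted log2 fold change divided by the square root of F. TMM factors of genes ran from 0.826 to 1.24. The families, the partner and marker lists and the tests were chosen with earlier results of these data known, and the marker sum without Kdr was added after seeing the data. Of the listed partners and markers Ntn5, Ngef, Pecam1, Col1a2, Myh2, Myh4 and Hba-a1 had no row. Values per library were named for called members, the 2 members of highest FPKM in each family or semaphorin class and, where a class had no call, the one with the lowest p; Sema4d, Sema6c, Ephb2, Ephb3, Epha4, Efna1, other plexins, and named partners and lncRNAs beyond that rule were chosen after their values were seen. Alternatives were other size factors, no filter, DESeq2 1.42.0, a replicate block, leaving out each library, leaving out both libraries numbered 9, and RPKM. The counting interval is an exact 95% interval and covers counting error only.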

Additional observations from a re-analysis of the deposited data

Results flagged for a closer look

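In 82 groups of 4 libraries the highest or lowest library's gap to its nearest neighbour was compared with the group's range. By Dixon's criterion 11 values stood apart, all from GK 9, control 9 or control 10. Chance gives about 1 in 20 groups that are independent. The groups here reuse the same libraries, so that rate is only a rough guide. Of these values 6 were from GK 9. Ephb3 stood at 7.61 CPM in GK 9 and 1.92 in the next library, Plxna3 at 26.1 against 10.8, Sema4d at 31.0 against 5.29, Sema4f at 6.0 against 0.824, Sema6c at 6.45 against 2.06 and Plxnb1 at 45.6 against 19.6 CPM. Among controls, control 10 stood apart for Sema3d with 109 CPM against 62.1 in the next control, for Sema3f with 84.7 against 39.7 and for Sema5b with 7.44 against 4.92. Control 9 stood apart for Sema4d with 8.18 CPM against 4.71 and for Epha3 with 17.8 against 5.95.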

How the results depend on the processing

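The 4 members called higher were 4 under other size factors, DESeq2, the replicate block and without GK 9, and 2 with no filter. Of all genes 4.13%, 10.1%, 9.66%, 11.2% and 1.90% were called higher in those fits. Members called lower (0) became 2 with DESeq2, 3 with the block and 7 without both libraries numbered 9. Beside them 8.09%, 7.69% and 8.91% of all genes were called lower. Partner genes called higher (5) were 8 with DESeq2, 8 with the block and 8 without both, beside 10.1%, 9.66% and 9.74% of all genes. Partners called lower (2) were 6, 5 and 8, beside the same shares of all genes as for members. Paired lncRNAs called lower (2) were 0 with no filter and 1 with the block. Leaving out each library gave 0 to 4 members higher, 0 to 9 lower, 0 to 7 partners higher, 1 to 11 lower, and 3 to 4 lncRNAs higher, 0 to 4 lower; 0 members were called without control 10, GK 7 or GK 8, and 9 lower without GK 9. All-gene calls ran from 135 without control 10 to 3046 without GK 9. Over these fits 0.520% to 11.2% of all genes were called higher and 0.455% to 10.9% lower. No share of all lncRNAs stands beside the lncRNA counts of the alternatives. The cause of these shifts was not tested. Of the 8 untested members, Epha5 had 240 of its 243 GK counts in GK 9.

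Same-numbered libraries correlated at 0.417, 0.068, 0.545 and 0.025 in their deviations from group means, so the numbers do not establish pairs. Libraries 7 and 9 correlated best with their own number, 8 and 10 did not. With the block Sema3d, Sema4a and Sema5a were called lower, beside 7.69% of all genes.

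Without both libraries numbered 9 the log2 fold change changed sign for Sema4d (-0.18), Sema3e (-0.51) and Plxnb1 (-0.31). Over single libraries left out, uncalled values that changed sign ran from -0.083 to 2.70 for Plxnb3, -0.44 to 1.31 for Sema4d, -0.81 to 1.61 for Sema4f, -0.47 to 0.030 for Sema7a, -1.13 to 0.078 for Sema3b, -0.13 to 0.35 for Epha2, -0.044 to 0.29 for Ephb4, -0.36 to 0.71 for Sema3e, -0.36 to 0.26 for Plxnb1, -0.29 to 0.0063 for Efna5 and -0.11 to 0.071 for Efnb2. RPKM in place of FPKM moved no member by more than 3 ranks.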
